A study of Mus musculus with 12 samples.

Results

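The genes described here are the numbered zinc finger protein genes of the mouse, those whose symbol is Zfp followed by digits alone or by digits and 1 letter. Symbols were matched to the Entrez identifiers of the expression table, and 300 of its 11786 genes met this rule, out of 399 such genes in the reference annotation. No expression value entered the choice. RNA was sequenced from dendritic cells that had been grown from mouse bone marrow with the cytokine GM-CSF, 2 libraries in each of 4 groups. The groups were Ythdf1-/- cells that had spent a night with necrotic B16-OVA, Ythdf1-/- cells alone, wild-type cells with the same necrotic cells, and wild-type cells alone. B16-OVA is a melanoma line of the mouse made to express ovalbumin. Ythdf1 encodes a reader of the mRNA mark N6-methyladenosine. The labels call the necrotic cells tumor lysate, and give no strain, age or sex. Whether both libraries of a group stem from different mice or cultures is not labelled, so the p-values reflect a spread that may be technical.

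Most of these genes encode proteins with tandem C2H2 fingers, small folds held by a zinc ion that read DNA and in some cases RNA. Many carry a KRAB box, which recruits the corepressor Trim28 and through it the histone methyltransferase Setdb1, and these KRAB proteins are known for silencing retroelements and for keeping imprints. KRAB genes lie in large tandem clusters that expanded by duplication, while zinc finger genes without the box include general transcription factors, cofactors and RNA-binding proteins. A few members have named roles in myeloid cells, among them Zfp36 (tristetraprolin, which binds AU-rich elements in cytokine mRNAs and brings in the deadenylation machinery) and Zfp366 (DC-SCRIPT, a regulator of dendritic cells).

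Values are the authors' log2 levels on the regularized logarithm (rlog) scale, a transform that shrinks poorly covered genes to their average, so changes of low genes are understated. A gene was called changed when limma's two-sided test, adjusted by the Benjamini-Hochberg method over all 11785 genes tested, gave a p under 0.05. All 300 members were tested. The deposited table holds no read counts, so depth and counting error are unknown. Library medians over all genes lay between 8.53 and 8.55. The Ythdf1 transcript was present in all libraries labelled Ythdf1-/-, and no difference passed the test. It stood at 9.51 and 9.46 in Ythdf1-/- labelled cells with lysate against 9.72 and 9.58 in wild-type cells with lysate, lower without overlap (log2 change -0.16 ± 0.081 SE, adjusted p = 0.202, limma), and at 9.53 and 9.43 in Ythdf1-/- labelled cells alone against 9.58 and 9.43 in wild-type cells alone. A whole-gene value says nothing of a lesion that leaves the transcript in place, and the groups are called KO-labelled here. All 14 dendritic cell markers examined were measured. All 8 macrophage markers were measured too, with summed levels of 15.38 to 15.5 in KO-labelled and 15.56 to 15.66 in wild-type libraries. Of these, Adgre1, Csf1r and Fcgr1 were called lower in KO-labelled cells alone (37.5% against 16.2% of all genes). With lysate only Adgre1 was (12.5% against 12.9%), and none was called higher in either comparison. Of 8 neutrophil markers 7 were measured (Ly6g was not in the table), and their summed level was lower in KO-labelled libraries (12.24 to 12.44, log2 of the sum) than in wild-type libraries (13.61 to 14.01). Of 7 melanocyte markers 4 were measured (Tyr, Mlana and Sox10 were not in the table), and all 4 rose with lysate in both genotypes. Of all genes 8.28% rose with lysate in KO-labelled and 10.2% in wild-type cells. Their summed level was 10.37 to 10.54 in lysate libraries and 9.78 to 10.11 in libraries of cells alone. That sum mostly followed Mitf, which stood at 9.6 to 9.97 in cells alone, where Dct, Tyrp1 and Pmel stood at 4.75 to 5.5. With lysate Mitf rose by 0.45 in KO-labelled and 0.38 in wild-type cells, and Dct, Tyrp1 and Pmel by 0.71 to 1.31. None of 5 B cell markers was in the table. In bulk samples fewer cells of a type and less RNA per cell cannot be told apart.

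The members were low transcripts for this cell type. Their median level was 7.16, against 8.53 for all genes of the table. Of the members, 61 lay above that median of all genes and 239 at or below it, and the quartiles of the family were 5.96 and 8.25. A KRAB A box, searched as the residues DVxVxFxxEEW with at most 1 mismatch in the reference protein, was found in 149 members and not found in 149. The 2 other members, Zfp267 and Zfp783, had no protein to read. The same pattern occurred in 25 of 10995 other coding genes. Members with the box had a median of 12 fingers, a median level of 6.59 and a transcript GC content of 41.1%. Those without it had a median of 8 fingers, a median level of 7.94 and a GC content of 50.0%, close to the 50.4% of all genes. The box was read in 1 transcript per gene, so a gene listed without it, such as Zfp708 or Zfp420, may carry it in another transcript. Zfp142 had the most fingers, 37. The C2H2 pattern was absent from 7 members, and of these Zfp36 and Zfp330 each matched a CCCH pattern 2 times.

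Zfp36 was by far the most abundant member. Its rlog level averaged 13.82 over the 8 libraries, and per kilobase of transcript its level of 12.34 was also the first of the family, followed by Zfp207 (10.11), a microtubule and kinetochore protein, and Zfp740 (9.97). On the rlog scale without length, Zfp106 (an RNA-binding protein of muscle and nerve), Zfp217 (a partner of the CoREST and CtBP corepressors), Zfp992 and Zfp207 followed it, with means between 10.76 and 11.66. The 5 members with the lowest means were Zfp72, Zfp697, Zfp9, Zfp108 and Zfp458, all between 4.02 and 4.10, and each was at most 4.28 in any library.

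No comparison called Zfp36. It stood at 13.76 and 13.78 in KO-labelled cells with lysate and 13.80 and 13.67 in KO-labelled cells alone, against 13.97 and 13.82 in wild-type cells with lysate and 13.82 and 13.95 in wild-type cells alone. The 4 wild-type libraries were at 13.82 or above and the 4 KO-labelled libraries at 13.80 or below. The change between genotype labels was -0.15 ± 0.075 (SE) without lysate and -0.12 ± 0.075 with lysate (adjusted p = 0.219 and 0.297, limma). The lysate changes were 0.03 in KO-labelled and 0.01 in wild-type cells. Mouse mRNAs known as targets of tristetraprolin did differ between groups, and 18 of 20 listed ones were measured. With lysate, 10 rose in KO-labelled cells and none fell, 55.6% against 15.2% of all genes tested. In wild-type cells 9 rose and 2 fell, 61.1% against 21.5%. Ccl2, a monocyte chemokine, rose by 1.03 ± 0.098 in KO-labelled and 0.93 ± 0.098 in wild-type cells, and Cxcl1, a neutrophil chemokine, by 0.50 ± 0.087 and 0.57 ± 0.087 in the same order. Il1b and Ier3 were the 2 that fell in wild-type cells. Between genotype labels 9 targets were lower in KO-labelled cells alone (50.0% against 16.2% of all genes) and 4 were lower in KO-labelled cells with lysate (22.2% against 12.9%), and none was higher. Il1b had the deepest of these differences, -0.85 ± 0.068, at 10.45 and 10.36 in KO-labelled cells alone against 11.30 and 11.21 in wild-type cells alone. The fall in neutrophil markers moved in the same comparisons, and its part in these target counts was not tested.

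AU-rich sites are shown next because they are what the Zfp36 protein binds. The nonamer TTATTTATT, searched on the sense strand of 3′ UTRs, stood in 7 of the 18 measured targets (38.9%), in 31 of 298 members with a coding transcript (10.4%) and in 793 of 11293 genes (7.02%). Zfp36 itself had 1 site. The sequences are from the GRCm38.p6 assembly, each in the direction of its gene, with the nonamer in capitals:

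Zfp36, chr7:28376951-28376979, minus strand: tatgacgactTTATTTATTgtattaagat

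Cxcl2, chr5:90905316-90905344, plus strand: gagagttcacTTATTTATTtatctatgta

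Ptgs2, chr1:150105790-150105818, plus strand: ctgaccatatTTATTTATTtatgtgaaga

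Cxcl2, the neutrophil chemokine with 4 such sites, rose with lysate in KO-labelled cells (0.48 ± 0.061) and in wild-type cells (0.19 ± 0.061). Ptgs2, the inducible cyclooxygenase, had 1 site and was lower in KO-labelled than in wild-type cells without lysate (-0.42 ± 0.10, adjusted p = 0.0119, limma). Its lysate changes, 0.02 in KO-labelled and -0.23 in wild-type cells, did not pass the threshold. Targets without the nonamer changed too, Il1b and Ccl2 among them. Of 22 measured genes of the tristetraprolin family and of deadenylation, lysate raised 1 and lowered 2 in KO-labelled cells (13.6% against 15.2% of all genes) and raised 1 and lowered 1 in wild-type cells (9.09% against 21.5%). Between genotype labels 3 were higher and 3 lower in KO-labelled cells with lysate (27.3% against 12.9% of all genes), and 1 was higher and 3 lower without it (18.2% against 16.2%). The paralog Zfp36l1 changed in no comparison, and Zfp36l2 was lower in KO-labelled than in wild-type cells with lysate (-0.27 ± 0.071, adjusted p = 0.0269, limma).

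**Figure D1:**
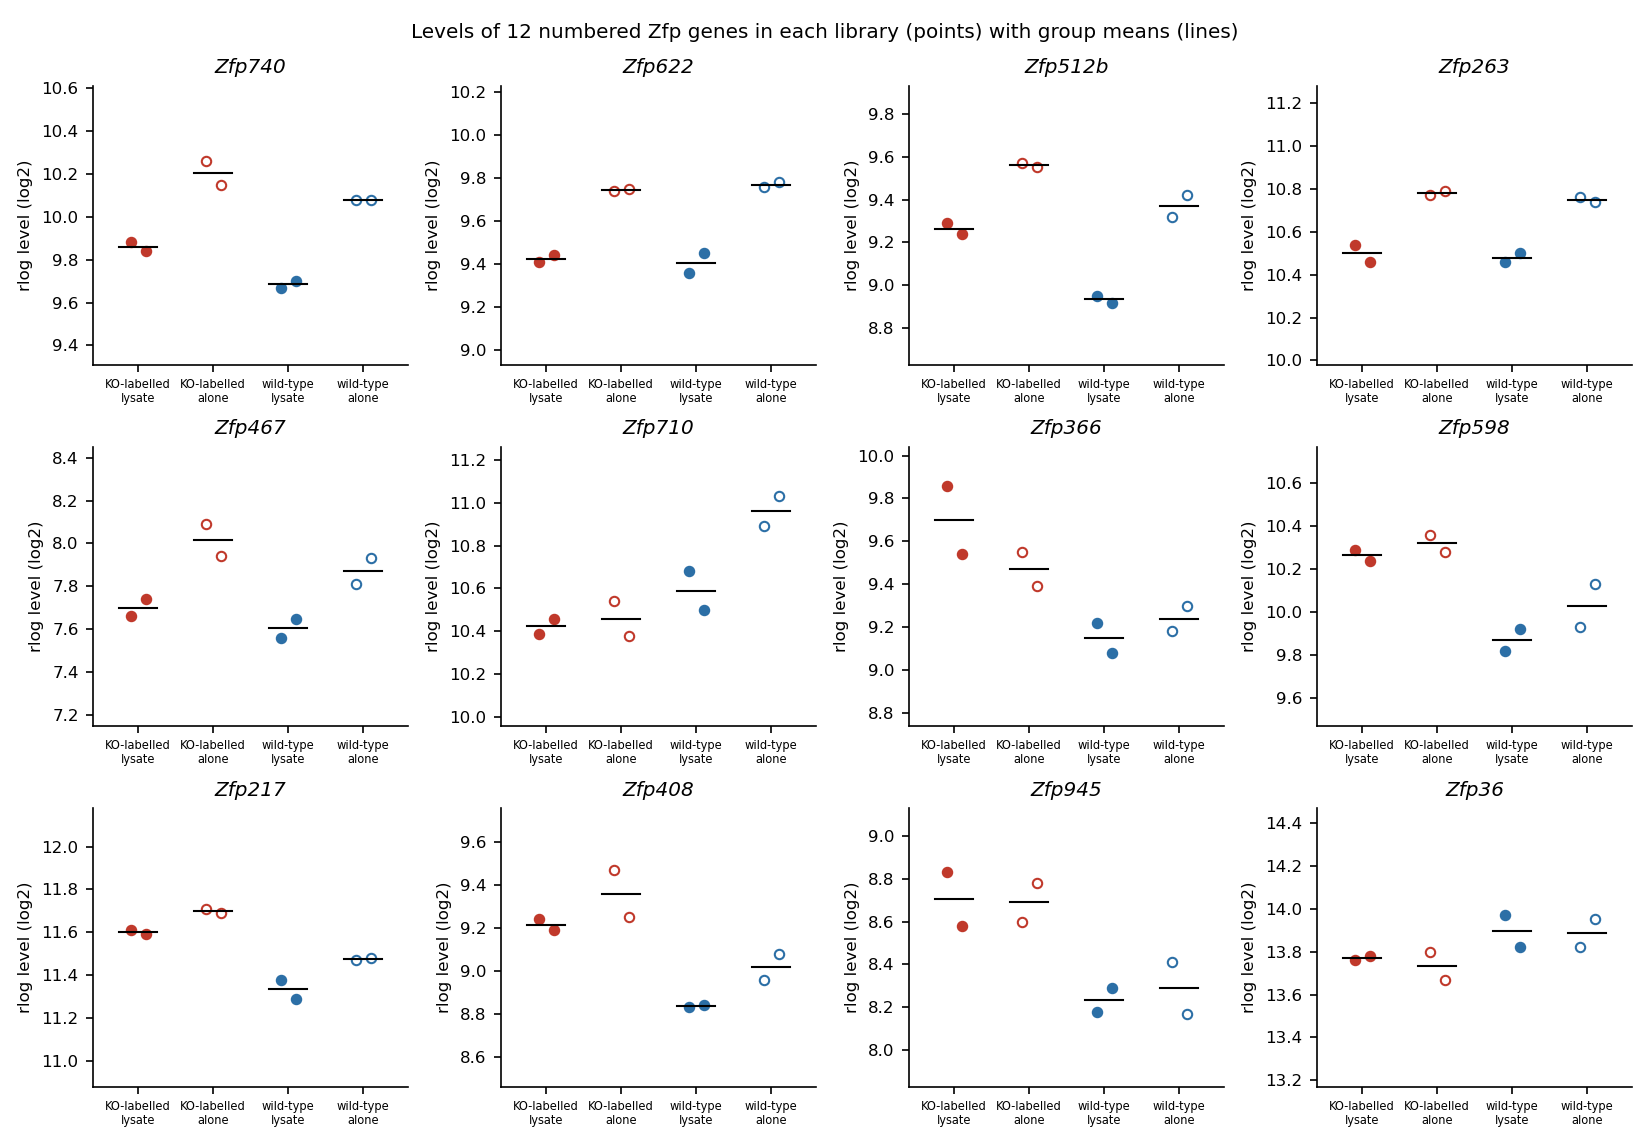
Rlog levels (log2, vertical axis) of 12 Zfp genes in each library, in the order KO-labelled cells with lysate, KO-labelled cells alone, wild-type cells with lysate and wild-type cells alone. Points are libraries (filled with lysate, open without; red KO-labelled, blue wild-type), lines are group means, and every panel spans the same range of log2 units. Zfp740, Zfp622, Zfp512b, Zfp263 and Zfp467 were lower in lysate libraries of both genotypes, and Zfp598, Zfp217, Zfp408 and Zfp945 were higher in KO-labelled libraries.

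Lysate changed few members. In KO-labelled cells 4 rose and 6 fell, 3.33% of the family against 15.2% of all genes tested (8.28% higher and 6.92% lower). In wild-type cells 10 rose and 14 fell, 8.0% against 21.5% (10.2% higher and 11.3% lower). The share depended on level. Of members above the median level of all genes 8.2% were called in KO-labelled and 14.8% in wild-type cells, and of the other members 2.09% and 6.28%. No member reached a 2-fold change in any comparison. The family's median change was 0.032 in KO-labelled cells and 0.017 in wild-type cells, against -0.0013 and -0.010 over all genes. The groups of libraries did not overlap for 128 members (42.7%) in KO-labelled cells and for 156 (52.0%) in wild-type cells, against 59.1% and 60.8% of all genes. Melanocyte markers rose in the same comparisons, and markers of other cell types changed too. Of 14 dendritic cell markers 7 were called lower and 1, Itgam, higher in KO-labelled cells (57.1%). In wild-type cells 7 were called lower and none higher (50.0%). Of 8 macrophage markers 2 were called higher and 1 lower in KO-labelled cells (37.5%), and 2 higher and 2 lower in wild-type cells (50.0%). Of 7 neutrophil markers 2 were called lower in each genotype (28.6%). The part of all these markers in the members' changes was not tested. The count in wild-type cells rested on single libraries: it was 4 without the second library of wild-type cells alone, and 6 and 10 without each wild-type lysate library in turn. In KO-labelled cells it was 47 without the second library of KO-labelled cells alone, and 1 without either lysate library.

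**Figure D2:**
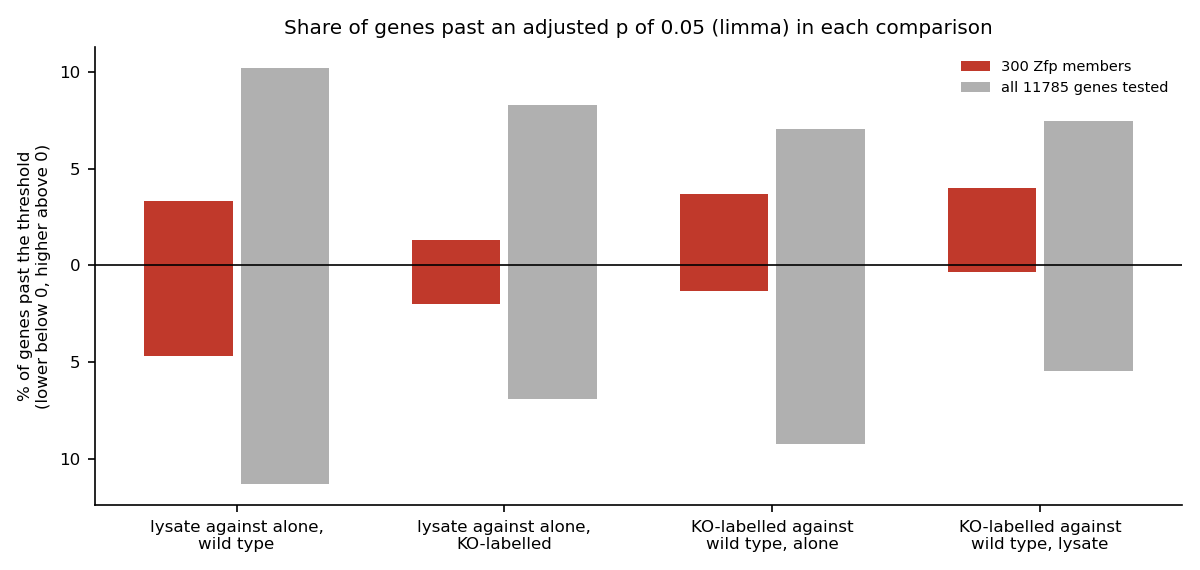
Percentage of genes past the threshold (vertical axis, higher above 0 and lower below 0) among the 300 Zfp members (red) and among all 11785 genes tested (grey), in the 4 comparisons. The red bars are shorter than the grey ones in every comparison and direction.

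A set of 5 members fell with lysate in both genotypes, and these were Zfp740, Zfp622, Zfp512b, Zfp263 and Zfp467, none with a KRAB box. Of all genes 6.92% fell in KO-labelled and 11.3% in wild-type cells. The share that fell in both was not counted, so the 5 have no background. Zfp740 stood at 9.88 and 9.84 in KO-labelled cells with lysate against 10.26 and 10.15 in KO-labelled cells alone (-0.35 ± 0.070, adjusted p = 0.00494, limma). In wild-type cells it stood at 9.67 and 9.70 with lysate against 10.08 and 10.08 alone (-0.40 ± 0.070, adjusted p = 0.00161, limma). All 4 lysate libraries were below all 4 libraries of cells alone. Zfp622, a factor of the maturing large ribosomal subunit, showed the same separation. It stood at 9.41 and 9.44 with lysate against 9.74 and 9.75 alone in KO-labelled cells (-0.32 ± 0.070), and at 9.36 and 9.45 with lysate against 9.76 and 9.78 alone in wild-type cells (-0.37 ± 0.070).

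Zfp512b stood at 9.29 and 9.24 in KO-labelled cells with lysate against 9.57 and 9.55 in KO-labelled cells alone (-0.29 ± 0.073). In wild-type cells it stood at 8.95 and 8.92 with lysate against 9.32 and 9.42 alone (-0.43 ± 0.073). Zfp512b also differed between genotype labels, as its lysate libraries were higher in KO-labelled than in wild-type cells (0.33 ± 0.073, adjusted p = 0.0113, limma). Zfp263, a promoter-binding factor, fell by 0.28 in KO-labelled cells and by 0.27 in wild-type cells (SE 0.066 each). Zfp467, known in mouse for a role in the choice between fat and bone cell fates, fell by 0.32 in KO-labelled cells and by 0.27 in wild-type cells (SE 0.090 each). The wild-type call of Zfp467 was lost under median centring and under quantile normalization, while those of Zfp740, Zfp622 and Zfp512b in wild-type cells held under every alternative run. In KO-labelled cells the call of Zfp740 was lost without the second lysate library, and those of Zfp622, Zfp512b, Zfp263 and Zfp467 without either lysate library. Zfp512b and Zfp467 also lost theirs without the first library of KO-labelled cells alone. Both lysate comparisons have separate libraries of cells alone, and the test of the difference between them called no member.

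The promoters of these 5 members are shown because the genes fell together. Each is the 200 bases before a RefSeq transcription start on GRCm38.p6, in the direction of the gene. Capitals mark the GC box, searched as GGGCGG. They also mark the CCAAT box and the ETS motif CCGGAAGT, all searched on both strands, where neighbouring matches can overlap. Zfp740 has a further start that is not shown.

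Zfp740, chr15:102203800-102203999, plus strand: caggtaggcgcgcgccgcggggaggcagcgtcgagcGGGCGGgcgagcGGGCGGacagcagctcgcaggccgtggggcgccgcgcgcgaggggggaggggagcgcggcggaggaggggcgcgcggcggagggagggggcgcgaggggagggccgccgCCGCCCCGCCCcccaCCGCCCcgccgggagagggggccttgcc

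Zfp622, chr15:25984166-25984365, plus strand: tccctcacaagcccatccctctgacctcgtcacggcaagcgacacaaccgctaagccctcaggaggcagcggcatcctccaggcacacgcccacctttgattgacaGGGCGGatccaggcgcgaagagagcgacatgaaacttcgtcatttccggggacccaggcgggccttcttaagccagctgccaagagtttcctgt

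Zfp512b, chr2:181592462-181592661, minus strand: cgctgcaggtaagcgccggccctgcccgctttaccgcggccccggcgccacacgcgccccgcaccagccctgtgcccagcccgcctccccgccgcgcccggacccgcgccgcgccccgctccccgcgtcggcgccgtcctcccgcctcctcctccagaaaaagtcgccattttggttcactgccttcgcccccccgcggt

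Zfp263, chr16:3743899-3744098, plus strand: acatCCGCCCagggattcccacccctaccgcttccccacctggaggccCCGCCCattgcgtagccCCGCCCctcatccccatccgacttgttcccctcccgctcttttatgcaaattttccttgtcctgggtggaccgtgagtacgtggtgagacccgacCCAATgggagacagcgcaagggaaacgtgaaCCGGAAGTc

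Zfp467, chr6:48445091-48445290, minus strand: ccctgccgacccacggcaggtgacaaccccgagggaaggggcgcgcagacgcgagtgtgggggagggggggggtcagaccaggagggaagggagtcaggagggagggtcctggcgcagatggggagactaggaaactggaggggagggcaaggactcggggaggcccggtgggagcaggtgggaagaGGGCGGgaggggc

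The GC box occurred in 4 of the 5 genes, with 5 matches in Zfp740 and 3 in Zfp263. Zfp512b held none of the motifs and 31 CpG dinucleotides, against medians of 21 for members without a KRAB box and 7 for all genes in promoter windows of 300 bases. Windows of 200 bases held a GC box in 52.9% of windows of members without a KRAB box, 40.5% of all member windows and 31.0% of all promoter windows. A match is a run of letters, not a bound site.

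Zfp710 fell in wild-type cells and was the member with the deepest difference between genotype labels without lysate. It stood at 10.39 and 10.46 with lysate against 10.54 and 10.38 alone in KO-labelled cells, where the libraries overlapped (-0.04 ± 0.085, adjusted p = 0.808, limma). In wild-type cells it stood at 10.68 and 10.50 with lysate against 10.89 and 11.03 alone (-0.37 ± 0.085, adjusted p = 0.00861, limma), a call lost without the second library of either wild-type group. The 2 libraries of wild-type cells alone were above the other 6. The test of the difference between the lysate effects called 0 members in limma, with 10 members (against 8.32% of all genes) at an unadjusted p under 0.05 and a smallest adjusted p of 0.44. Of all genes 0.11% were called, each of them higher (0.11%), and 0.0% lower. So no lysate effect on a member was shown to differ between genotype labels, Zfp710 included.

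Other falls in wild-type cells were Zfp444, Zfp276, Zfp628, Zfp236, Zfp704, Zfp658, Zfp524 and Zfp839. The lowest of these by change was Zfp444, at -0.37 ± 0.12 (adjusted p = 0.0416, limma), with 7.52 and 7.70 in lysate libraries against 7.85 and 8.11 in libraries of cells alone. Without the second library of wild-type cells alone the change was -0.24 for Zfp444 and -0.23 for Zfp276. In Zfp524, 46.0% of the 50-base runs of the transcript were shared with another gene, so its reads are uncertain. In KO-labelled cells the deepest fall was that of Zfp296, an early embryonic factor, at 7.0 and 7.18 with lysate against 7.57 and 7.49 alone (-0.44 ± 0.094, adjusted p = 0.00735, limma), a call lost without the first KO-labelled lysate library.

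The members that rose with lysate had a median level of 6.31 in KO-labelled and 6.39 in wild-type cells, below the 9.43 and 9.37 of those that fell. In wild-type cells the largest was Zfp948, a KRAB gene, at 7.24 and 7.29 with lysate against 7.07 and 6.69 alone (0.39 ± 0.12, adjusted p = 0.0334, limma). Without the second library of wild-type cells alone its change was 0.20. Zfp449, Zfp958, Zfp324, Zfp27 and Zfp420 followed at 0.34 to 0.38, and Zfp11 completed the list with 3 genes that have general roles. Zfp143, a promoter-binding activator, stood at 8.12 and 7.95 with lysate against 7.75 and 7.66 alone (0.33 ± 0.091, adjusted p = 0.0199, limma). Zfp532 rose by 0.31 ± 0.084, and Zfp91, a ubiquitin ligase of non-canonical NF-kB signalling, by 0.28 ± 0.088. The call of Zfp91 was lost without the mean-variance trend and with a replicate block. Its change ran from 0.19 to 0.36 when 1 library was left out. In KO-labelled cells all 4 rises were KRAB genes, Zfp52 (0.35 ± 0.11), Zfp382 (0.33 ± 0.10), Zfp930 (0.32 ± 0.099) and Zfp54 (0.26 ± 0.079). Without the first library of KO-labelled cells alone the change of Zfp52 was 0.22. The call of Zfp52 was also lost without the mean-variance trend and with a replicate block. The calls of Zfp948, Zfp449, Zfp958 and Zfp420 in wild-type cells, and of Zfp930 and Zfp54 in KO-labelled cells, were lost when a trend of each library on transcript GC content and length was removed. The calls of Zfp382, Zfp930 and Zfp54 were also lost under quantile normalization, and those of Zfp382 and Zfp54 in a fit of the 2 groups alone. Of 8 fits that each left out 1 library, Zfp54 kept its call in 0 and Zfp382 in 1.

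Called members that rose differed from those that fell in GC content and, less evenly, in the KRAB box. In KO-labelled cells 4 KRAB members rose and none fell (2.68%), against 15.2% of all genes called. Without the box none rose and 6 fell (4.03%). In wild-type cells 4 KRAB members rose and 1 fell (3.36%), against 21.5% of all genes. Without the box 6 rose and 13 fell (12.8%), so more of the wild-type rises lacked the box than had it. The members that rose had a median GC content of 40.0% in KO-labelled and 44.7% in wild-type cells, and those that fell had 53.0% and 53.7%. Over all 149 KRAB members the median change was 0.073 in KO-labelled cells, with 106 above 0, and 0.040 in wild-type cells, with 97 above 0. With the trend on GC content and length removed these medians were -0.0013 and -0.045, with 74 and 52 above 0, so the direction of the KRAB members in both genotypes depended on that step. The same step changed the calls of the family to 6 rises and 19 falls in KO-labelled cells and to 8 rises and 24 falls in wild-type cells. Calls over all genes increased too. In KO-labelled cells they went from 976 rises and 816 falls of 11785 genes to 1452 and 1479 of 11552. In wild-type cells they went from 1205 and 1329 to 1626 and 1617. Centring on 1 median gave 12 rises and 11 falls of members in wild-type cells (1309 and 1201 of all genes). Quantile normalization gave 1 rise and 6 falls of members in KO-labelled cells (917 and 868 of all genes).

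**Figure D3:**
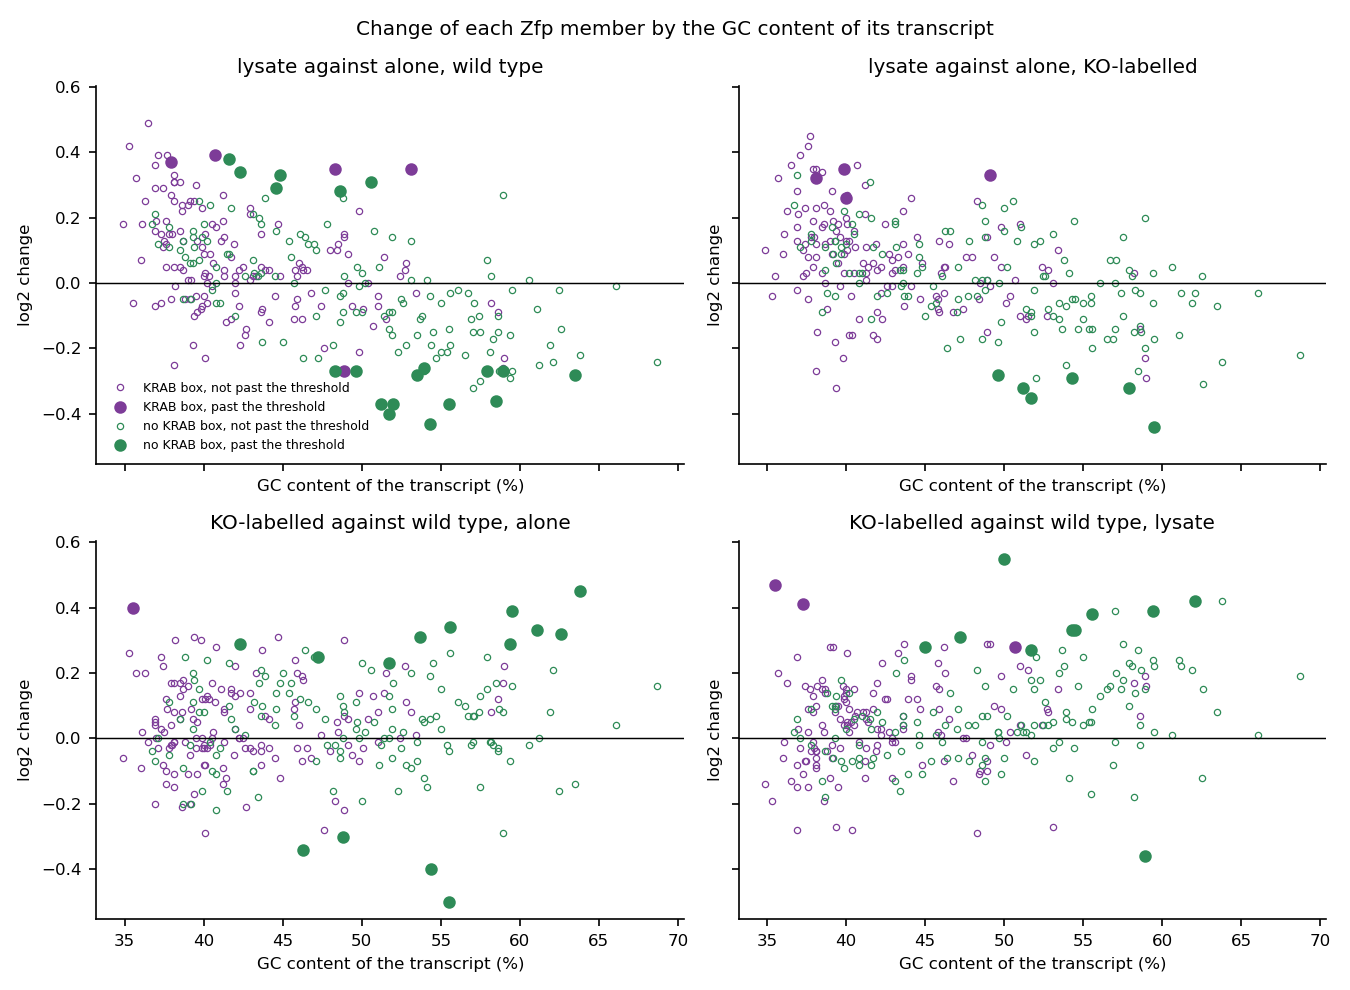
Log2 change of each Zfp member (vertical axis) against the GC content of its transcript in percent (horizontal axis), one panel per comparison. Filled points passed the threshold, purple points have a KRAB box and green points do not. In both lysate panels the filled points below 0 lie at 48.3% GC or above, and the genotype panels show most filled points above 0.

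Libraries of cells alone also differed among themselves in the KRAB members. The first library minus the second had a median of -0.14 over the KRAB members in KO-labelled cells alone, with 33 of 149 above 0, and of 0.14 in wild-type cells alone, with 130 of 149 above 0. Over all genes the medians were 0.017 and -0.0036. Members without the box showed 0.021 and -0.0027. In the lysate groups the KRAB medians were 0.058 in KO-labelled and 0.032 in wild-type cells. The shifts of 0.14 in size within the cells alone exceed the KRAB members' median lysate changes, those within the lysate groups do not, and their part in those changes was not tested.

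**Figure D4:**
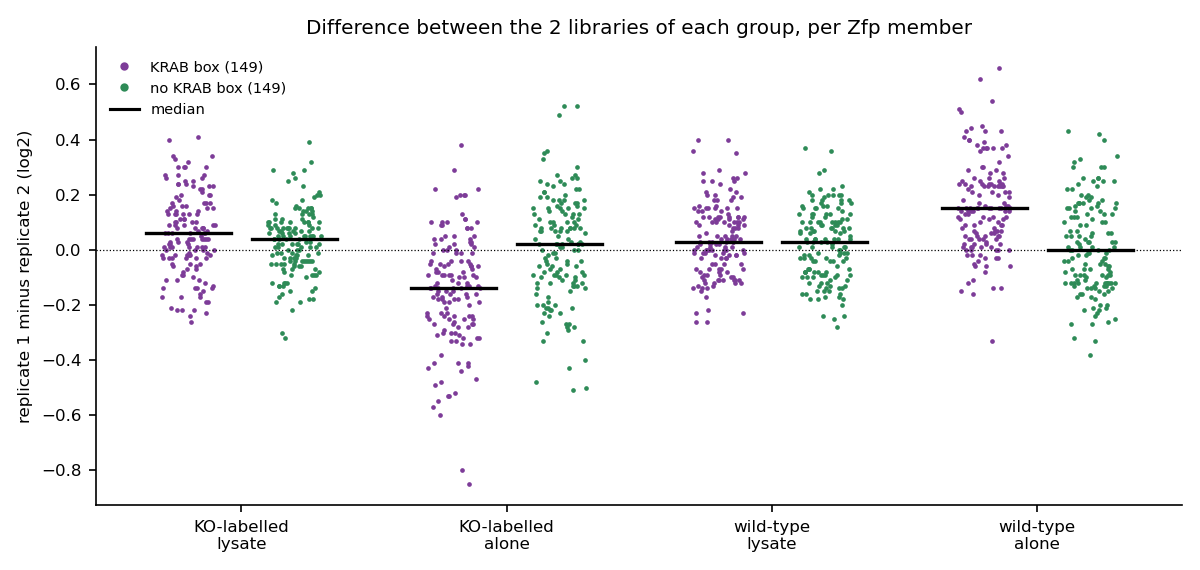
First library minus second library of each group, per Zfp member (log2, vertical axis), with KRAB members in purple, members without a KRAB box in green and medians as black lines. The purple medians lie at -0.14 in KO-labelled cells alone and 0.14 in wild-type cells alone, and nearer 0 in both lysate groups.

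Zfp genes that neighbour each other are described by runs. Counting members with at most 2 other coding genes between them, 7 runs held 7 or more members, 78 in all. The longest, 19 members on chromosome 13 (Zfp273, Zfp708, Zfp458 and others), had 17 members above 0 with lysate in KO-labelled cells and 15 in wild-type cells, with a median change of 0.13 in each and no call. A run of 16 on chromosome 17 had medians of 0.16 in KO-labelled and 0.24 in wild-type cells, with Zfp52 and Zfp54 called in KO-labelled cells and Zfp948 in wild-type cells. All 7 members of a run on chromosome 4 (Zfp933, Zfp992 and others) lay above 0 in both genotypes, at medians of 0.15 in KO-labelled and 0.18 in wild-type cells, with no call. Other runs did not rise. A run of 7 on chromosome 6 (Zfp212 and others) had medians of -0.14 in KO-labelled and -0.21 in wild-type cells. Zfp467 was its call in both. On chromosome 7 a run of 9 (Zfp108 and others) had medians of -0.0074 and -0.00036, in the same order. A run of 13 there (Zfp14 and others) had 0.086 and 0.097, and a second run on chromosome 17 (Zfp472 and others) had 0.063 and -0.033. With the GC and length trend removed the medians of the chromosome 13 run became 0.021 and -0.041, in the same order. Those of the chromosome 4 run became 0.028 and -0.024, and those of the run of 16 on chromosome 17 became 0.051 and 0.081. The chromosome 6 run then had medians of -0.11 and -0.1. Some members also share sequence with other genes. Over the whole family 59 members shared over 10% of their 50-base runs with another gene, and 16 shared 50% or more. Zfp97 and Zfp960 were among these and shared with each other, so reads may have been split between them. Sharing was not counted by neighbour run.

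The promoters of the neighbour runs were searched for known motifs. The ZNF143 site, named for the human counterpart of Zfp143 and searched on both strands as ACTACA, any base and then TTCC, stood in 42 of 306 RefSeq promoter windows of 255 members (13.7%), against 334 of 32851 windows of all genes (1.02%). A window runs from 250 bases before a start to 50 bases after it. The share was 17.2% for KRAB members and 10.5% for members without the box. In the chromosome 13 run 14 of 18 members with a window held the site, and in 2 runs on chromosome 7 it stood in 7 of 9 and 9 of 12. None of the 36 members on chromosome 17 with a window held it. Of the 46 sites 36 read against the direction of their gene, 45 lay before the start, and 45 were followed by a C. A few are shown, since the shared flanks let the duplicated copies be seen, each on the strand that reads ACTACA, with the motif in capitals, on GRCm38.p6:

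Zfp874a, chr13:67451631-67451671, plus strand: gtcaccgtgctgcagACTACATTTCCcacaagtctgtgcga

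Zfp874b, chr13:67484262-67484302, plus strand: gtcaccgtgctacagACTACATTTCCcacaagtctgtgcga

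Zfp595, chr13:67332585-67332625, plus strand: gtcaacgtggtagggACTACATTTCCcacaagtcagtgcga

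Zfp708, chr13:67081571-67081611, plus strand: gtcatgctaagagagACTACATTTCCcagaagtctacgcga

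Zfp85, chr13:67755192-67755232, plus strand: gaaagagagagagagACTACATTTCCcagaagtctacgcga

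Zfp260, chr7:30095033-30095073, minus strand: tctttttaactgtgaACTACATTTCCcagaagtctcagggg

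Zfp84, chr7:29768515-29768555, minus strand: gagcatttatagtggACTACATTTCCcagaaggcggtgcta

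Zfp420, chr7:29859905-29859945, plus strand: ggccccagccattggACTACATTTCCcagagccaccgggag

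The 42 members with the site had a median level of 5.93 and a median lysate change of 0.09 in KO-labelled and 0.06 in wild-type cells. Zfp420 was the one that changed, at 5.19 and 5.18 with lysate against 4.90 and 4.80 alone in wild-type cells (0.34 ± 0.087, adjusted p = 0.0152, limma). Other motifs differed less from all genes. The ETS motif CCGGAAGT stood in 9.48% of member windows and 3.89% of all windows, the CCAAT box in 48.7% and 37.4%, and the AP-1 motif TGANTCA in 3.27% and 7.81%. The GC box stood in 35.8% of KRAB windows and 56.9% of windows without the box, against 35.7% of all.

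**Figure D5:**
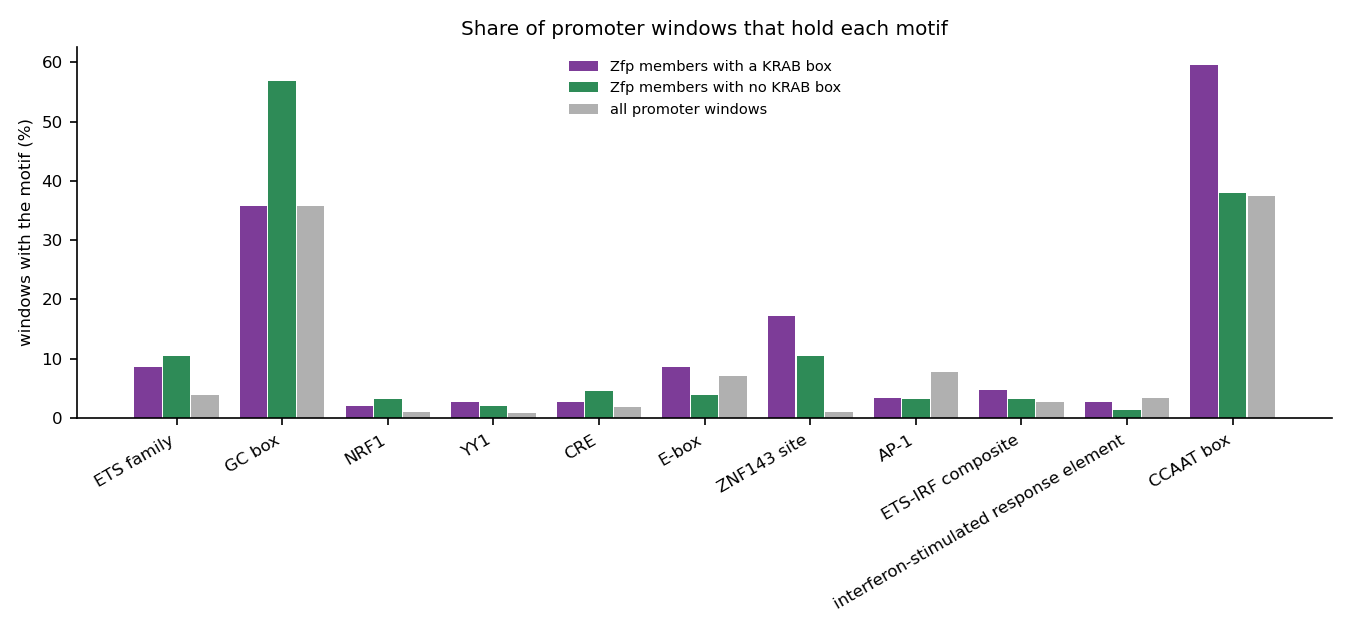
Percentage of promoter windows that hold each of 11 motifs (vertical axis) among Zfp members with a KRAB box (purple), Zfp members without one (green) and all genes (grey). The ZNF143 site stands at 17.2%, 10.5% and 1.02%, and the CCAAT box is highest in KRAB windows.

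Between genotype labels more members were higher in KO-labelled cells than lower. Without lysate 11 were higher and 4 lower, 5.0% of the family against 16.2% of all genes, and with lysate 12 were higher and 1 was lower, 4.33% against 12.9%. Of all genes tested 7.02% were higher and 9.23% lower without lysate, and 7.44% and 5.45% with it. Of members above the median level of all genes 11.5% were called under each condition. Of the other members 3.35% were called without lysate and 2.51% with it. Libraries did not overlap for 108 members (36.0%) without lysate and 139 (46.3%) with it, against 52.7% and 60.6% of all genes. The family's median was 0.042 without lysate and 0.047 with it, against 0.0022 and -0.0085 over all genes. Leaving out the first KO-labelled lysate library left no member called with lysate, the second left 4, and leaving out each wild-type lysate library left 5 and 2. Without lysate the count was 7 and 5 when each wild-type library of cells alone was left out, and 23 without the second KO-labelled one. With the GC and length trend removed the split with lysate was 27 higher and 6 lower. Over all genes that step gave 1235 higher and 1350 lower of 11552, against 877 and 642 of 11785 without it.

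A set of 5 members was higher in KO-labelled cells under both conditions, Zfp598, Zfp217, Zfp408, Zfp945 and Zfp280b. Of all genes 7.02% were higher without lysate and 7.44% with it. The share higher under both was not counted. Zfp598, the ubiquitin ligase that senses collided ribosomes, stood at 10.29 and 10.24 in KO-labelled against 9.82 and 9.92 in wild-type cells with lysate (0.39 ± 0.080, adjusted p = 0.00726, limma). Without lysate it stood at 10.36 and 10.28 in KO-labelled against 9.93 and 10.13 in wild-type cells (0.29 ± 0.080, adjusted p = 0.0236, limma). Its 4 KO-labelled libraries were above its 4 wild-type ones. Zfp217 stood at 11.61 and 11.59 in KO-labelled against 11.38 and 11.29 in wild-type cells with lysate (0.27 ± 0.064), and at 11.71 and 11.69 in KO-labelled against 11.47 and 11.48 in wild-type cells alone (0.23 ± 0.064).

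Zfp408, whose human counterpart is known for a role in the retina, was higher by 0.38 ± 0.086 with lysate and 0.34 ± 0.086 without. Zfp945, a KRAB gene of chromosome 17, stood at 8.83 and 8.58 in KO-labelled against 8.18 and 8.29 in wild-type cells with lysate (0.47 ± 0.11, adjusted p = 0.0133, limma), and was higher by 0.40 ± 0.11 without lysate. The calls of Zfp598, Zfp217, Zfp408 and Zfp945 without lysate were lost in a fit of the 2 groups alone. Their calls with lysate held in that fit, and each was lost without the first KO-labelled lysate library.

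Zfp366 had the largest genotype difference of any member. It stood at 9.86 and 9.54 in KO-labelled against 9.22 and 9.08 in wild-type cells with lysate (0.55 ± 0.10, adjusted p = 0.00473, limma). Without lysate it stood at 9.55 and 9.39 against 9.18 and 9.30, where the groups did not overlap either but the test did not pass (0.23 ± 0.10, adjusted p = 0.161, limma). Markers of dendritic cells differed in the same comparison. With lysate 8 of 14 were called higher in KO-labelled cells and none lower (57.1% against 12.9% of all genes). By sign 10 lay above 0 and 4 below. Flt3, a receptor of dendritic cells and their precursors, was higher by 0.29 ± 0.073 with lysate. Zbtb46, a zinc finger factor of classical dendritic cells, was higher by 0.41 ± 0.078. Without lysate 4 were called higher and 2 lower (42.9% against 16.2%). The lower ones were Itgax (-0.33 ± 0.078) and Itgam (-0.42 ± 0.062). All 7 measured neutrophil markers were lower in KO-labelled cells with lysate, and 6 of the 7 were lower without it. The part of these cell type markers in the Zfp366 difference was not tested. Its call was lost without the second wild-type lysate library or the first KO-labelled one (highest adjusted p 0.119, limma).

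Other members higher in KO-labelled cells with lysate were Zfp219 (0.42 ± 0.10), Zfp966 (0.41 ± 0.087), Zfp318 (0.28 ± 0.070) and Zfp568 (0.28 ± 0.082), besides Zfp956 and Zfp512b. Zfp318 is known in mouse B cells for allowing IgD to be made, and Zfp568 is a KRAB repressor of a placental Igf2 promoter. Zfp966 shared 89.6% of its 50-base runs with Zfp968, so its reads are uncertain. The lower one was Zfp503, at 5.03 and 5.22 in KO-labelled against 5.41 and 5.57 in wild-type cells (-0.36 ± 0.097, adjusted p = 0.0273, limma).

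Without lysate, Zfp710 was the deepest of the 4 lower members, at 10.54 and 10.38 in KO-labelled against 10.89 and 11.03 in wild-type cells (-0.50 ± 0.085, adjusted p = 0.00146, limma), and this call held under every alternative run. Zfp395 (-0.40 ± 0.099), Zfp652, a corepressor partner (-0.34 ± 0.10), and Zfp608 (-0.30 ± 0.095) were the others. The call of Zfp608 was lost under median centring, under quantile normalization, without the mean-variance trend and in a fit of the 2 groups alone, and that of Zfp652 in the last of these. Among the higher members Zfp579 had the largest change, 0.45 ± 0.14, but its KO-labelled libraries stood far apart, at 7.45 and 6.93, against 6.70 and 6.79 in wild-type cells. Its change was 0.19 without the first of these KO-labelled libraries and 0.71 without the second. Zfp296 stood at 7.57 and 7.49 in KO-labelled against 7.08 and 7.20 in wild-type cells (0.39 ± 0.094, adjusted p = 0.0124, limma). Zfp513, Zfp787, Zfp629 and Zfp420 were also higher. The change of Zfp513 was 0.21 without the first library of wild-type cells alone, and that of Zfp787 was 0.18 without the first library of KO-labelled cells alone. The KRAB box was present in 1 of the 11 higher members without lysate and in 3 of the 12 with lysate.

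Members with known roles in the silencing of retroelements and in imprinting were mostly not called. Zfp809, which silences murine leukemia virus DNA, averaged 8.26 ± 0.0071 in KO-labelled and 8.03 ± 0.021 in wild-type cells with lysate (SD, n = 2 each), a difference of 0.23 ± 0.083 (SE) that did not pass (adjusted p = 0.0814, limma). Zfp445, an imprint regulator, differed by 0.26 ± 0.084 in the same comparison (adjusted p = 0.0551, limma). Zfp932 and Zfp708, both repressors of endogenous retroviruses, passed in no comparison, and Zfp568 passed in 1. Zfp57 was not in the table. Of 22 measured genes of the KRAB repressor complex and its partners, lysate raised 2 and lowered 2 in KO-labelled cells and raised 4 in wild-type cells. These are 18.2% in each genotype, near the 15.2% and 21.5% of all genes. The maintenance and de novo DNA methyltransferases Dnmt1 and Dnmt3a rose in both. Trim28, the shared corepressor, stood at 10.44 and 10.45 in KO-labelled cells with lysate against 10.72 and 10.60 in KO-labelled cells alone, without overlap and short of the threshold (-0.21 ± 0.070, adjusted p = 0.0555, limma). Between genotype labels 2 of the 22 were called alone (9.09% against 16.2% of all genes) and 1 with lysate (4.55% against 12.9%). Chd3, a remodeller of the NuRD complex, was higher in KO-labelled cells by 0.38 ± 0.074 under both conditions. Cbx1 was higher by 0.45 ± 0.080 without lysate only.

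Members that act on RNA, ribosomes or splicing changed in the 2 cases already given, Zfp622 with lysate and Zfp598 between genotype labels. Zfp593, Zfp638, Zfp346, Zfp385a, Zfp326, Zfp106, Zfp830 and Zfp706 passed in no comparison. Among chromatin partners Zfp516, Zfp592, Zfp687, Zfp609, Zfp451, Zfp644, Zfp518a, Zfp518b and Zfp703 passed in none. Zfp335, needed for T cells to mature in mice, passed in none. Among general promoter factors Zfp384, Zfp281, Zfp148, Zfp410, Zfp207, Zfp746 and Zfp131 passed in none.

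Other zinc finger families are given beside the Zfp genes. The share of all genes called with lysate was 15.2% in KO-labelled and 21.5% in wild-type cells. Of 37 Zbtb genes, which carry a BTB domain, 1 fell with lysate in KO-labelled cells (2.7%) and 4 fell in wild-type cells (10.8%), and Zbtb46 was in both counts. Of 18 Zscan and Zkscan genes 0 changed with lysate in KO-labelled cells by limma (2 at an unadjusted p under 0.05) and 3 fell in wild-type cells (16.7%). Klf genes, a family of 11 measured members, had 3 rises and 1 fall with lysate in KO-labelled cells, and 2 rises and 3 falls in wild-type cells (36.4% and 45.5%). Between genotype labels the share of all genes called was 16.2% without lysate and 12.9% with it. In KO-labelled cells 2 Zbtb genes were higher under each condition (5.41%) and none lower, and 1 Zscan or Zkscan gene was higher with lysate (5.56%). Of the Klf genes 5 were lower in KO-labelled cells alone (45.5%) and 2 with lysate (18.2%), and none was higher. The Zfp members had 11 higher and 4 lower alone (5.0%) and 12 higher and 1 lower with lysate (4.33%). Over all comparisons between pairs of groups, 252 of the 300 numbered Zfp members were called in none and 48 in at least 1. The same count over all genes was not made. It is no less than the 21.5% of all genes called with lysate in wild-type cells.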

How the data were processed

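Poly(A) RNA was prepared with a stranded TruSeq kit per the labels' protocols. The authors deposited 1 table of log2 values per Entrez gene for 8 libraries. These are read as regularized logarithms made by the authors with DESeq2, from the name of the table and the submitters' processing notes, which also name STAR, deepTools and mm9 without versions. The annotation, the counter and its strand setting were not given in the sources used here. The 4 immunoprecipitation samples were not analysed here.

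From these values the 11785 genes with a group mean of 4 or more in any group entered 1 fit of group means (limma 3.58.1 in R 4.3.3, eBayes with a mean-variance trend, 4 residual and 9.33 prior degrees of freedom), with the script tested on simulated data. Symbols came from GRCm38.p6 (11744 matched, 42 did not). Transcript features came from GRCm38 transcripts, for 299 members. Promoter sequences are RefSeq's, for 255 members. This build differs from mm9 and was used for names, neighbours and sequences only. Figures used Python 3.11.15.

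The members, gene lists and tests were chosen with earlier results of these data known. Named members are Zfp36, up to 6 largest rises and falls per comparison past the threshold without overlap, the 5 highest and 5 lowest members and role lists. Promoters, sites and remaining called members were chosen after their values were seen. Alternatives were no filter and a filter at 6, median centring, quantile normalization, no trend, only the groups compared, a replicate block, removal of a trend on GC content and length, and leaving out each library, with the spread of a lone library taken from the other groups. A crossed block was added after seeing the data.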

Additional observations from a re-analysis of the deposited data

How the results depend on the processing

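Counts of members called are given in the order lysate in KO-labelled cells (10), lysate in wild-type cells (24), genotype labels alone (15) and genotype labels with lysate (13). Fitting only the groups compared gave 40 for lysate in wild-type cells, 3 for genotype labels alone and 30 for genotype labels with lysate. Removing the GC and length trend gave 25 for lysate in KO-labelled cells, 41 and 33 for genotype labels alone and with lysate. Calls over all 11552 genes in that fit increased too. They were 1452 higher and 1479 lower for lysate in KO-labelled cells. Between genotype labels they were 1495 higher and 1626 lower alone, and 1235 and 1350 with lysate. For the other alternatives of this section calls over all genes were not counted, so their counts have no background. The cause of these moves was not tested. The replicate numbers do not pair the samples by the labels, and correlations of the deviations ran from -0.611 to 0.259. With them as a replicate block the counts were 5, 15, 7 and 11, and with the GC trend removed as well 19 for lysate in KO-labelled cells, 38 and 34 for genotype labels. A block with the numbers of KO-labelled cells alone crossed gave 28, 63, 30 and 37. Leaving out 1 library gave 1 to 47, 4 to 49, 5 to 23 and 0 to 27. Besides those in the report, in wild-type lysate the count was 40 without the first library of wild-type cells alone, 49 without either of KO-labelled cells alone and 14 without either of KO-labelled cells with lysate. For lysate in KO-labelled cells it was 6 without the first library of KO-labelled cells alone. Between genotype labels alone it was 7 and 8 without each KO-labelled lysate library, and with lysate 27 without either library of KO-labelled cells alone. The difference of the lysate effects called 0 members under every alternative run. Of 51 calls of named members 4 held under every alternative run, and 47 were lost without at least 1 library, with 0 changes of sign past the threshold. With no counts, depth sets an unknown limit on low members, and 2 libraries a group limit all.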
